A study of Mus musculus with 32 samples.

Results

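Spinal cord from young mice carrying a CHMP2Bintron5 transgene was compared with that of age-matched controls at 1.5 months, the earliest of 3 ages in the series. The comparison rests on 11 of 32 RNA-seq libraries, 5 labelled CHMP2Bintron5 (replicates 1 to 5) and 6 labelled wild type (replicates 1 to 6, called controls here), and was made over 20015 genes that passed a filter on low counts. The transgenic mice carried 12 copies of the transgene, every mouse was of a mixed FVB/N, C57BL/6 and DBA/2 strain, and neither the labels nor the protocols name the promoter that drives the transgene. The other 21 libraries are the same genotypes at 6 months (4 CHMP2Bintron5, 5 control) and at 10-12 months (6 of each). The labels do not say whether each library is 1 animal, so the p-values measure the spread between libraries. For the gene tests this spread was estimated from all 32 libraries together.

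CHMP2B belongs to ESCRT-III, the machinery that pinches vesicles into endosomes on the way to the lysosome and that also acts in autophagy. Mutations that truncate the C terminus of the protein, among them the intron5 form, cause a rare inherited frontotemporal dementia. Variants of the CHMP2B gene have also been found in patients with motor neuron disease. In the spinal cord, motor neurons and their interneurons are supported by myelinating oligodendrocytes, by astrocytes and by microglia, the resident macrophages, and injury of neurons is usually accompanied by a change of state in both microglia and astrocytes.

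Levels below are CPM, a gene's count relative to the size of its library as scaled by the trimmed mean of M values (TMM), and log2 fold changes are CHMP2Bintron5 over control with their standard error (SE). Amounts by which a gene is said to rise, and values given for a gene with an SE, are log2 fold changes. A gene was called where its Benjamini-Hochberg adjusted p from edgeR's quasi-likelihood test was under 0.05. A list of genes is given by how many of its tested members were called and by its median log2 fold change, beside a median of 0.0022 over all 20015 genes.

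The 11 libraries held 28.4 M to 85.3 M counts in controls and 42 M to 64.1 M in CHMP2Bintron5. Markers of spinal cord cells were present in every library: Chat, the acetylcholine-synthesising enzyme of motor neurons, lay at 13.9 to 22.6 CPM in controls and 20.6 to 27 CPM in CHMP2Bintron5, and Mbp, a myelin protein, at 7816 to 14510 CPM and 7904 to 13280 CPM. A pair of libraries stood apart by skeletal muscle transcripts, whose summed level over 17 genes was 446 CPM in control replicate 2 and 606.7 CPM in CHMP2Bintron5 replicate 3 against 113.6 to 203.5 CPM in the other 9. Of the 17 genes 0 were called by edgeR, 1 passed an unadjusted p of 0.05 and 1 was called by DESeq2. In both cases the gene was lower in CHMP2Bintron5. The median log2 fold change of the 17 was 1.09, with 16 above 0. The median of the summed level was 143 CPM in CHMP2Bintron5 and 160.2 CPM in controls. Without this pair 653 genes were called at 1.5 months, 559 of them among the 746 given below. The share of counts from the mitochondrial genome was 3.5 to 5.28% in controls and 3.17 to 4.12% in CHMP2Bintron5, a mean difference of -0.765 percentage points (exact permutation test, two-sided, p = 0.0455, n = 6 and 5). This p was over 0.05 (0.0619 to 0.1) in 9 of the 11 comparisons that left out 1 library. The TMM factors were also higher in CHMP2Bintron5 (1.015 to 1.046) than in controls (0.956 to 1.017; exact permutation test, two-sided, p = 0.00649, n = 6 and 5). Blood transcripts varied between libraries in both groups, with summed erythrocyte genes, mainly haemoglobins, at 132 to 658 CPM in controls and 329 to 1115 CPM in CHMP2Bintron5.

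At 1.5 months 352 genes were higher and 394 lower in CHMP2Bintron5, which is 1.76% and 1.97% of the genes tested, 3.73% together. Of these, 97 of the higher and 29 of the lower genes differed by at least 2-fold, so the larger changes were mostly increases. Protein-coding genes made up 321 of the higher and 354 of the lower genes. The interquartile range of the log2 fold change over all tested genes was -0.13 to 0.17. In 485 of the 746 called genes the values of the 5 CHMP2Bintron5 libraries did not overlap those of the 6 controls, against 688 (3.44%) of all 20015 genes. Of the 746, 369 were called when any 1 of the 11 libraries was left out. With the 11 libraries fitted alone, 308 genes were called, and 295 of the 746 kept their call in the same direction.

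The fold changes followed the base composition of the genes. In the tenth of genes with the lowest GC content (median 39% GC) the median log2 fold change was -0.12, with 7 genes higher and 20 lower. In the tenth with the highest (median 59.5% GC) it was 0.20, with 34 higher and 5 lower. Across 19914 genes with a known GC content, the rank correlation between GC content and fold change was 0.366, as a description only, since all genes share the same 11 libraries. The slope of each library's expression on GC content, in log2 units per 10% GC, ran from -0.332 to 0.226 in controls and from -0.14 to 0.474 in CHMP2Bintron5, where replicate 4 had the steepest slope. The group means of the slopes differed by 0.137 (exact permutation test, two-sided, p = 0.348, n = 6 and 5), so this difference lay within the spread between libraries.

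**Figure D1:**
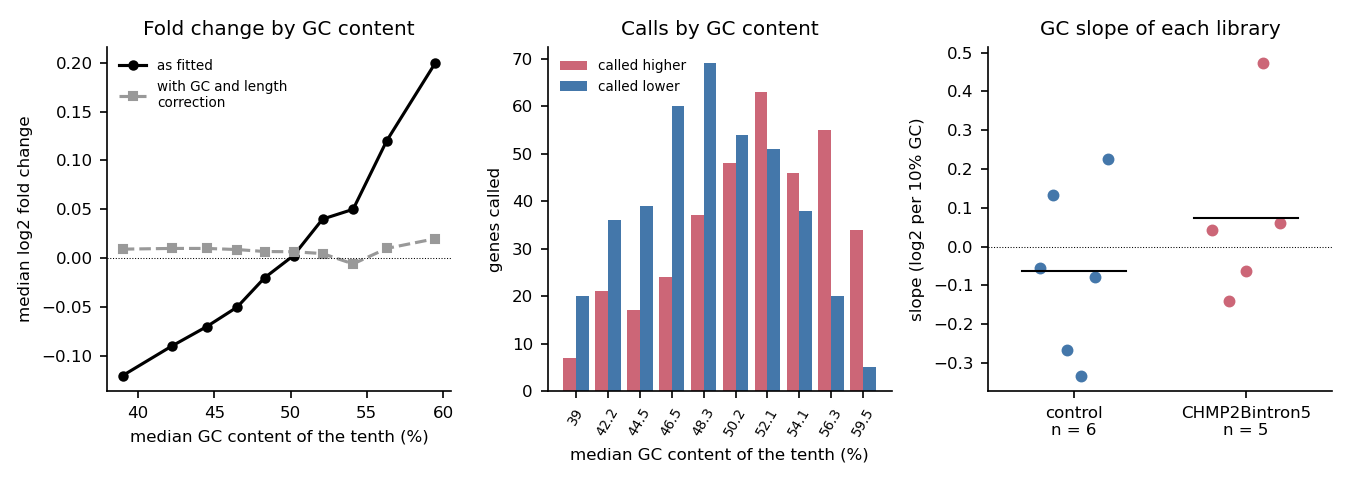
Left, median log2 fold change (CHMP2Bintron5 over control, 1.5 months) of genes in 10 groups of rising GC content, as fitted (black circles) and with a correction for GC content and gene length (grey squares). Middle, genes called higher (red) and lower (blue) in each group. Right, slope of expression on GC content in each library (points) with the group mean (line). The uncorrected medians climb from -0.12 to 0.20, the corrected ones stay between -0.0058 and 0.02, and CHMP2Bintron5 replicate 4 sits highest at 0.474.

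With each library's trend on GC content and gene length removed, 675 genes were higher (3.37%) and 873 lower (4.36%), and the rank correlation with GC content was 0.00356. Of the 746 genes called as fitted, 698 were also called in the same direction after the correction, 48 were not, and 850 genes were called only after it. The members described below are therefore given with their corrected call wherever it differs from the fitted one. Among the 166 named genes that were called, 161 were also called after the correction, and none changed sign.

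**Figure D2:**
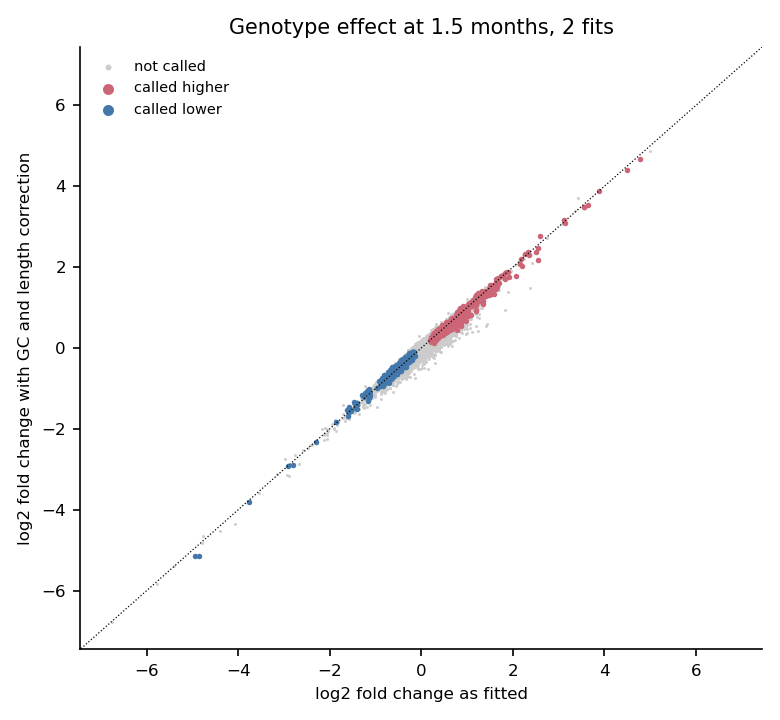
Log2 fold change of each tested gene at 1.5 months as fitted (x axis) against the value with the GC and length correction (y axis), red for genes called higher, blue for genes called lower and grey for the rest, all by the uncorrected fit. The dotted line marks equal values. Called genes lie along the line in both fits.

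Chmp2b itself (ENSMUSG00000004843, chr16:65539128-65562726, GRCm38.p6) was read at 83.1, 90, 91, 65.1 and 79.6 CPM in CHMP2Bintron5 replicates 1 to 5 and at 56.2 to 76.5 CPM (median 62.2) in controls. In 4 of the 5 CHMP2Bintron5 libraries it lay above every control, and replicate 4 lay within the control range. The log2 fold change was 0.36 ± 0.13 (adjusted p = 0.142), so the gene was not called, while with the GC and length correction it was 0.40 ± 0.09 (adjusted p = 0.00467). Counts per gene do not tell reads of the mouse gene from reads that a transgene adds, and the extent to which transgene reads align to it was not tested.

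Thy1 (ENSMUSG00000032011, chr9:44043384-44048579), the gene of a glycolipid-anchored protein on neurons, stood at 1516, 1318, 1419, 1564 and 1396 CPM in CHMP2Bintron5 and at 452 to 677 CPM (median 573) in controls. The groups were far apart in every library, with a log2 fold change of 1.35 ± 0.11 (adjusted p = 7.03e-09) and a highest adjusted p of 5.09e-08 with any 1 library left out. Whether these reads come from the resident gene or from sequence carried with the transgene cannot be told apart in gene counts.

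Lists of the endosomal and autophagic machinery around CHMP2B held 0 or 1 called genes. Over all tested genes 3.73% were called in either direction, so lists of this size would hold about as few. Of 27 tested ESCRT genes 0 were higher and 1 lower (1 and 1 after the GC correction described above), with a median log2 fold change of -0.03. The 1 called member, Tsg101, a subunit of ESCRT-I that binds ubiquitinated cargo, fell by 0.16 on the log2 scale, and its call was lost when any 1 of 8 libraries was left out and after the GC correction (adjusted p = 0.302). Chmp4b, which polymerises on the endosomal membrane, was at 0.00 ± 0.06 (adjusted p = 0.991). Vps4a, an ATPase that takes ESCRT-III filaments apart, was at -0.08 ± 0.05 (adjusted p = 0.393).

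None of 35 genes of endosomal sorting and recycling were called by edgeR or DESeq2 (median -0.05), with 6 at an unadjusted p under 0.05, and 1 was higher and 1 lower after the GC correction. Of 32 autophagy genes 1 was called, and 1 higher and 1 lower after the correction. That gene, Sqstm1, encodes the autophagy receptor p62, a protein that gathers in inclusions in several neurodegenerative diseases. It rose by 0.30 ± 0.08 (adjusted p = 0.0252), and the call was lost without control replicate 3 or 4 or CHMP2Bintron5 replicate 1 or 4 (adjusted p up to 0.113). Calcoco2, an autophagy receptor that is not on this list, was called lower and is given further below. Of 33 genes linked to amyotrophic lateral sclerosis and frontotemporal dementia, 2 were higher, Sqstm1 and Grn, and 0 lower, against 3 and 3 after the GC correction. Grn, the gene of the lysosomal protein progranulin, rose by 0.60 ± 0.1 (adjusted p = 0.000287), whereas Tardbp, the gene of the RNA-binding protein TDP-43, was at -0.11 ± 0.09 (adjusted p = 0.567).

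Many genes of microglia were higher at this age. Among 37 genes known from disease-associated microglia, the state that microglia take near damaged neurons, amyloid or degenerating myelin, 22 were higher and 0 lower, with a median log2 fold change of 0.69. Over all tested genes the share called higher was 1.76%. After the GC correction the count was 23 higher and 0 lower with a median of 0.51, and with any 1 library left out at least 20 were called. In bulk tissue a greater number of cells of a type and more RNA per cell cannot be told apart.

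Promoter windows of 2 of these microglial genes are shown because both hold a match to the AP-1 motif, which the immediate early factors Fos and Jun bind. The windows are the 250 bases before the RefSeq transcription start (GRCm38.p6, written 5′ to 3′ on the gene's strand), Itgax at chr7:128129300-128129549 on the plus strand and Trem2 at chr17:48346151-48346400 on the plus strand. Capitals mark matches to TGANTCA, searched on both strands.
Itgax: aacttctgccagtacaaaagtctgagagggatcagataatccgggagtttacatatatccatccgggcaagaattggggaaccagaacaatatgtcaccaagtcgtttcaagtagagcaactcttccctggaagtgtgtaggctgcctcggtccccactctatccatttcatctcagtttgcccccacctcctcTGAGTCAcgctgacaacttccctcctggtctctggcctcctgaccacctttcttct
Trem2: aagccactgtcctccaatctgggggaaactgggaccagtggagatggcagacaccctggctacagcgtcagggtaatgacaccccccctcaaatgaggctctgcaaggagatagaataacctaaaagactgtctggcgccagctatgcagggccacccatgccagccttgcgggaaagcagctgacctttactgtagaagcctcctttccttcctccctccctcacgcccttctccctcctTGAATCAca
A window of this kind was found for 13606 of the 20015 tested genes, and 5.98% of them held the motif, against 7 of 31 (22.6%) genes of the disease-associated list with a window. The share was 7.54% among all genes called higher and 7.69% among all called lower. It was 6 of 24 (25%) in the interferon response list and 3 of 11 (27.3%) in the ependymal list, each with 0 genes called. These matches are descriptions of letters and were not tested as binding sites.

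Receptors that define the state rose together. Itgax (chr7:128129547-128150657), which encodes the integrin CD11c and is scarce in resting microglia, stood at 6.41, 11, 12, 5.22 and 5.54 CPM in CHMP2Bintron5 and at 0.331 to 0.804 CPM (median 0.522) in controls. No CHMP2Bintron5 library came near the control range, and the log2 fold change of 3.88 ± 0.39 (adjusted p = 7.86e-08) is a 14.7-fold difference. Trem2 (chr17:48346401-48354147), the lipid-sensing receptor whose loss blocks this state in mice, was at 28.1, 27.6, 34.1, 30.9 and 24.4 CPM against 6.85 to 10.3 CPM (median 7.84). These values also did not overlap (1.84 ± 0.16, adjusted p = 9.13e-09). Tyrobp, the signalling adaptor that Trem2 needs, was at 43.6, 39, 50.9, 44 and 37.7 CPM against 9.66 to 18.8 CPM (median 15.2), a log2 fold change of 1.51 ± 0.19 (adjusted p = 3.63e-06). Clec7a, a receptor for fungal glucans that marks plaque-associated microglia, was at 8.46, 12.3, 11.7, 4.53 and 8.43 CPM against 0.958 to 2.55 CPM (median 1.98) and rose by 2.26 ± 0.28 (adjusted p = 4.26e-06).

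Effectors of the state rose with the receptors. Cst7, an inhibitor of lysosomal cathepsins, stood at 2.44, 3.4, 3.53, 2.11 and 2.2 CPM in CHMP2Bintron5 and 0.117 to 0.922 CPM (median 0.15) in controls. Control replicate 1 was well above the other controls in this gene, and all 5 CHMP2Bintron5 libraries lay above every control (3.14 ± 0.49, adjusted p = 0.000125). Gpnmb, a glycoprotein of phagocytes with a heavy lysosomal load, was at 4.86, 2.03, 0.848, 1.62 and 0.811 CPM against 0.216 to 0.803 CPM (median 0.352) (2.33 ± 0.39, adjusted p = 0.000284). Lgals3, galectin-3, a lectin that gathers on ruptured lysosomes, was at 10.1, 10.5, 10.6, 12.3 and 10.1 CPM against 1.61 to 3.57 CPM (median 2.16) (2.16 ± 0.21, adjusted p = 3.99e-08). CHMP2Bintron5 replicate 4 was the highest library for Lgals3 and stood apart from the other 4. Apoe, the lipid carrier that microglia and astrocytes share, was at 917, 814, 933, 1884 and 1136 CPM against 354 to 746 CPM (median 575), again highest in replicate 4. It rose by 1.00 ± 0.22 (adjusted p = 0.00489), and without replicate 4 the adjusted p was 0.0392.

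Chemokines and growth factors gave 6 of 29 genes higher, 0 lower (7 and 1 after the GC correction) and a median of 0.00066, so the increases sat on a few members. Ccl3 and Ccl4, chemokines of activated microglia that attract leukocytes, were the largest of them. Ccl3 was at 2.32, 3.55, 3.76, 2.31 and 3.24 CPM in CHMP2Bintron5 and 0.0721 to 0.436 CPM (median 0.238) in controls (3.56 ± 0.42, adjusted p = 2.5e-06). Ccl4 was at 1.34, 1.92, 2.01, 1.32 and 1.92 CPM against 0.0721 to 0.201 CPM (median 0.127) (3.65 ± 0.35, adjusted p = 4.69e-08). Both genes were low in absolute level and did not overlap between groups. Csf1, the growth factor that sustains microglia through Csf1r and that injured motor neurons release, rose by 0.44 ± 0.07 (adjusted p = 9.98e-05). Ccl6 rose by 1.40 ± 0.2 (adjusted p = 2.56e-05) and Cxcl16 by 0.56 ± 0.12 (adjusted p = 0.00445). Il1rn, the antagonist of the interleukin 1 receptor, rose by 1.18 ± 0.3 (adjusted p = 0.0213), a call lost without any of control replicates 3 and 5 and CHMP2Bintron5 replicates 2 and 3.

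Genes of resting microglia split into members that rose and members that did not pass the test. Of 23, 6 were higher and 0 lower (median 0.25). After the GC correction 10 were higher. Csf1r, the receptor that microglia need to survive, was at 83, 83.6, 89.3, 94.8 and 89 CPM in CHMP2Bintron5 and 42.2 to 62.8 CPM (median 55.7) in controls (0.69 ± 0.09, adjusted p = 1.47e-05). Cx3cr1, the receptor of the neuronal chemokine fractalkine, rose by 0.66 ± 0.11 (adjusted p = 0.000294). Fcrls, which marks microglia against invading monocytes, rose by 1.12 ± 0.21 (adjusted p = 0.00122). Other called members were Aif1 (0.80 ± 0.14, adjusted p = 0.000548), the cytoskeletal protein Iba1, and the transcription factor Irf8 (1.00 ± 0.18, adjusted p = 0.000508).

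P2ry12, the purinergic receptor that activated microglia lose, was at 12.8, 13.9, 14.7, 11 and 14.7 CPM in CHMP2Bintron5 and 12.1 to 17.9 CPM (median 15) in controls. The ranges overlapped, with a log2 fold change of -0.18 ± 0.15 (adjusted p = 0.565). Tmem119, another marker of resting microglia, was at 10.7, 10.2, 9.81, 18.6 and 12 CPM against 8.58 to 16.4 CPM (median 11.3), with replicate 4 above all other libraries (0.05 ± 0.16, adjusted p = 0.892). Sall1, a transcription factor of microglial identity, was at 0.12 ± 0.09 (adjusted p = 0.509).

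**Figure D3:**
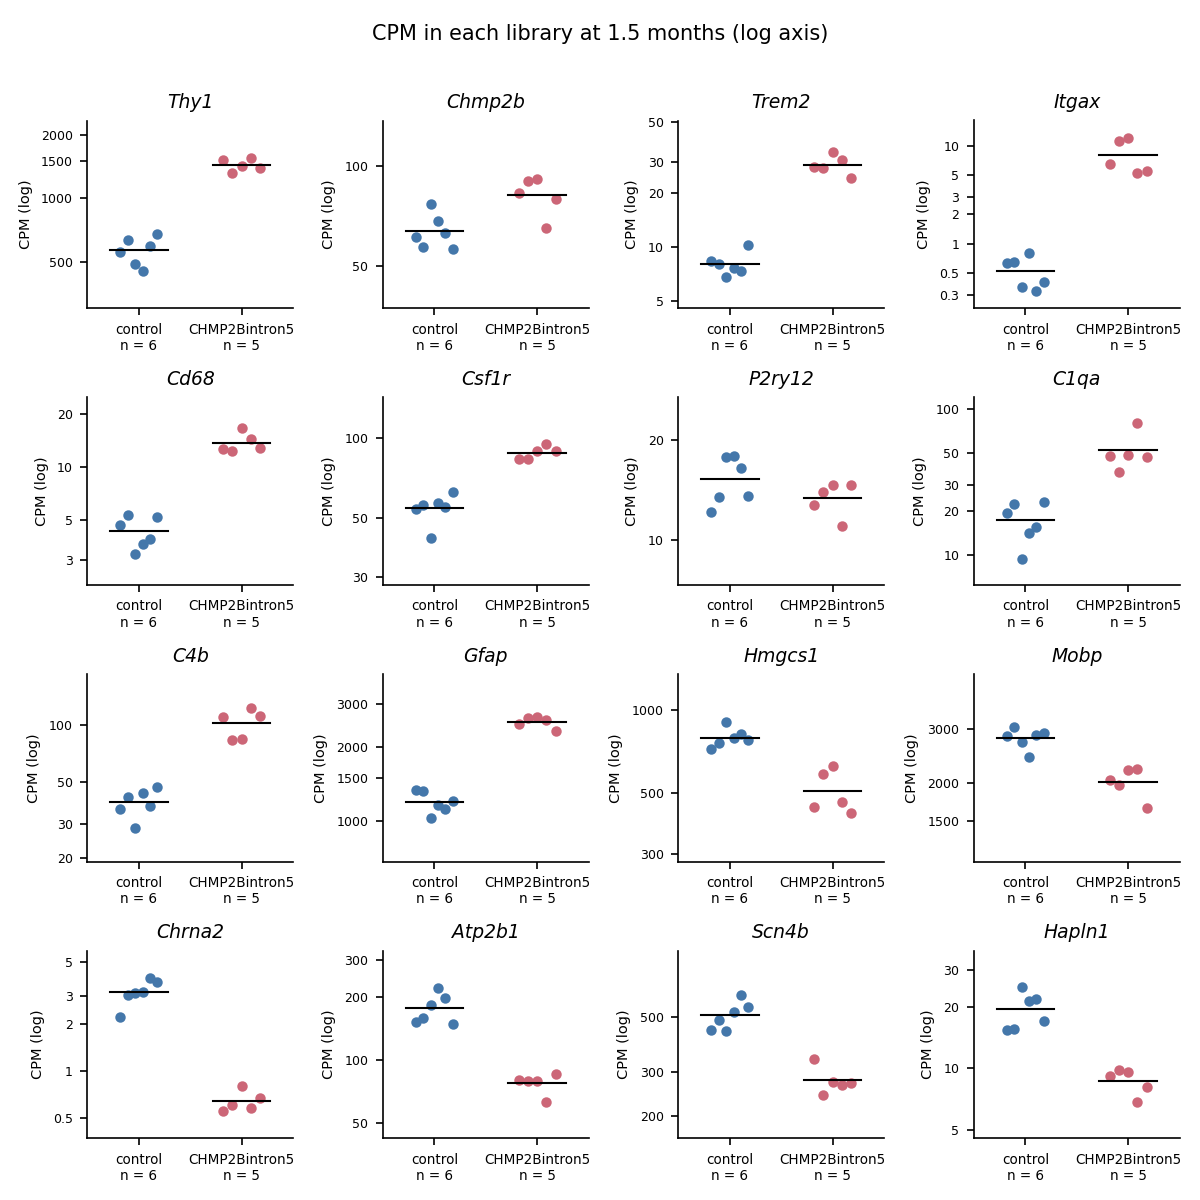
CPM (log axis) of 16 genes in each of the 6 control (blue) and 5 CHMP2Bintron5 (red) libraries at 1.5 months, with the group mean as a line. In Thy1, Trem2, Itgax, Cd68, Csf1r, C1qa, C4b and Gfap every CHMP2Bintron5 point lies above every control, in Hmgcs1, Mobp, Chrna2, Atp2b1, Scn4b and Hapln1 every one lies below, and in Chmp2b and P2ry12 the groups overlap.

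Lists of other leukocytes had few called genes, beside 3.73% called over all tested genes. Of 18 genes of perivascular macrophages and monocytes 1 was called, Lyz2 (0.76 ± 0.21, adjusted p = 0.032), a lysozyme that activated microglia express as well, whose call was lost without any of 6 of the 11 libraries. The summed level was 158 to 209 CPM in controls and 182 to 248 CPM in CHMP2Bintron5. The defining members Mrc1, Cd163 and Ccr2 were at -0.24 ± 0.19, -0.41 ± 0.28 and -0.50 ± 0.3 (adjusted p = 0.527, 0.479 and 0.412). None of 16 T and NK cell genes were called by edgeR or DESeq2 (5 at an unadjusted p under 0.05), with a summed level of 6.06 to 16.7 CPM in controls and 9.31 to 11.6 CPM in CHMP2Bintron5. B and plasma cell genes gave 0 of 11 with both tools (2 at an unadjusted p under 0.05), with 78.5 to 114 CPM in controls and 29.2 to 76.4 CPM in CHMP2Bintron5. The median log2 fold change of the T and NK cell list was -0.58. That of the B and plasma cell list was -0.43, with 0 of 11 above 0.

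A few genes better known from lymphocytes were nevertheless among the changed genes. Pdcd1, which encodes the inhibitory receptor PD-1, was at 1.43, 1.5, 1.71, 1.29 and 0.764 CPM in CHMP2Bintron5 and at 0.0361 to 0.184 CPM (median 0.0781) in controls (3.56 ± 0.35, adjusted p = 6.78e-08). Lag3, another inhibitory receptor, rose by 1.36 ± 0.21 (adjusted p = 8.09e-05), and Batf3, a transcription factor of dendritic cells, by 1.35 ± 0.3 (adjusted p = 0.00563). The T cell receptor component Cd3e was at 0.062 to 0.205 CPM in CHMP2Bintron5 and 0.0361 to 0.403 CPM in controls (adjusted p = 0.696). Of 12 neutrophil genes only Csf3r, a receptor that microglia also express, was called (1.16 ± 0.15, adjusted p = 5.52e-06), and the granule gene S100a8 was not (adjusted p = 0.719). The median of the neutrophil list was -0.42.

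Among 32 phagocytic and Fc receptor genes 11 were higher and 0 lower (median 0.26). Fcer1g and Fcgr3, a signalling chain and a receptor for antibody-coated targets, rose by 1.12 ± 0.18 and 1.05 ± 0.17 (adjusted p = 0.000149 and 0.000151). Mpeg1, the pore-forming protein perforin-2 of macrophages, was at 62.2, 75.8, 86, 45.4 and 78.4 CPM in CHMP2Bintron5 and 15.5 to 27 CPM (median 22) in controls (1.67 ± 0.2, adjusted p = 3.29e-06). All 5 CHMP2Bintron5 libraries lay above the controls for Mpeg1. Slc11a1, a metal transporter of the phagosome, rose by 1.22 ± 0.13 (adjusted p = 1.6e-07).

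The complement list gave 6 of 19 genes higher and 0 lower (median 0.23), 6 in every fit that left out 1 library and 6 after the GC correction. C1qa, which with C1qb and C1qc forms the recognition protein of the classical pathway and can tag synapses for removal, was at 47.2, 36.9, 48.2, 80.1 and 46.8 CPM in CHMP2Bintron5 and 9.3 to 23 CPM (median 17.4) in controls. It rose by 1.58 ± 0.23 (adjusted p = 3.87e-05), with replicate 4 above the other CHMP2Bintron5 libraries. C1qb and C1qc rose by 1.32 ± 0.17 and 1.47 ± 0.21 (adjusted p = 4.86e-06 and 4.24e-05). C4b, the next component of the cascade and largely a product of astrocytes and oligodendrocytes in the nervous system, was at 109, 83.3, 83.8, 123 and 110.3 CPM against 28.6 to 46.9 CPM (median 39.5) (1.38 ± 0.14, adjusted p = 5.41e-08). C3, on which the pathways converge, was at 64.2, 68.5, 60.9, 89 and 67 CPM against 28.7 to 42.4 CPM (median 37.2) and rose by 0.93 ± 0.13 (adjusted p = 2.1e-05), again highest in replicate 4. Its receptor gene C3ar1 rose by 1.33 ± 0.24 (adjusted p = 0.000741).

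Of 55 lysosomal genes 14 were higher and 1, Ctsk (-0.58 ± 0.17, adjusted p = 0.0482; named after its value was seen), was lower, with a median of 0.10. Cd68, a glycoprotein of the phagocyte lysosome, was at 12.6, 12.3, 16.6, 14.5 and 12.9 CPM in CHMP2Bintron5 and 3.24 to 5.38 CPM (median 4.33) in controls, a log2 fold change of 1.65 ± 0.15 (adjusted p = 3e-08). Ctsd, the main aspartic protease of the lysosome, was at 802, 695, 799.6, 758 and 719.8 CPM against 397 to 536 CPM (median 476) (0.69 ± 0.09, adjusted p = 5.49e-06). Ctss and Ctsz, cysteine proteases abundant in microglia, rose by 1.09 ± 0.16 and 0.67 ± 0.1 (adjusted p = 5.84e-05 and 6.01e-05). The called lysosomal genes were in part members of the microglial lists: Ctsd, Ctsz, Cd63, Cd68 and Laptm5 stand on both. Lamp1 and Lamp2, membrane proteins of lysosomes in every cell type, were at -0.07 ± 0.05 and -0.06 ± 0.15 (adjusted p = 0.519 and 0.859). Tfeb, the transcription factor that drives lysosomal genes through the CLEAR motif, was at 0.29 ± 0.3 (adjusted p = 0.649).

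The promoter of Ctsd is shown as the 1 window among genes called higher that held the palindromic CLEAR core TCACGTGA, marked in capitals (RefSeq, GRCm38.p6, chr7:142387828-142388077, minus strand, 250 bases before the start, both strands searched).
Ctsd: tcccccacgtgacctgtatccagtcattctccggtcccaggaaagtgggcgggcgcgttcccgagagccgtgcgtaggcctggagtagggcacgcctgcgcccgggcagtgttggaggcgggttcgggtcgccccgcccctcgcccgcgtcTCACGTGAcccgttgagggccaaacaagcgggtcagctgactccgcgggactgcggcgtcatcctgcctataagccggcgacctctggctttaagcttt
Among all genes with a window 1.49% held this core, against 6 of 44 lysosomal genes (13.6%). Of those 6, Atp6v1a, Cln3, Ctsa, Gla and Mcoln1 were not called and Ctsd was. The share was 0.397% among all genes called higher and 1.05% among all called lower. In the endosomal sorting and recycling list, where edgeR called 0 genes as fitted, 4 of 27 (14.8%) held the core.

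The MHC class I and interferon lists had 0 called genes, while the MHC class II list had called members. Over all tested genes 3.73% were called in either direction. In the MHC class II list (median 0.14) 2 of 13 were higher, beside 1.76% of all tested genes, and 3 after the GC correction. The 2 were H2-Ob (1.06 ± 0.18, adjusted p = 0.00034) and Ctss, while Cd74, the invariant chain, was at 0.50 ± 0.27 (adjusted p = 0.346). None of 18 MHC class I genes were called by edgeR or DESeq2 (median 0.03, 4 at an unadjusted p under 0.05), 1 was higher and 1 lower after the GC correction, and B2m, their shared light chain, was at 0.32 ± 0.16 (adjusted p = 0.307). None of 32 interferon response genes were called by edgeR or DESeq2 (median 0.08), and 0 had an unadjusted p under 0.05. Isg15 and Ifit3, which interferons induce, were at 0.02 ± 0.21 and -0.24 ± 0.33 (adjusted p = 0.969 and 0.738). Of 27 genes of Toll-like receptor signalling 2 were higher (6 after the GC correction), Tlr2 (1.13 ± 0.14, adjusted p = 4.26e-06) and its partner Cd14 (0.90 ± 0.17, adjusted p = 0.00103).

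Part of the list of reactive astrocyte genes was higher. Among 39 genes of reactive astrocytes 12 were higher and 0 lower (median 0.26), 9 to 12 were called with any 1 library left out, and 16 after the GC correction. Gfap (chr11:102887336-102900912), the intermediate filament of reactive astrocytes, stood at 2490, 2631, 2657, 2574 and 2331 CPM in CHMP2Bintron5 and 1023 to 1339 CPM (median 1182) in controls. The groups were clearly apart (1.08 ± 0.1, adjusted p = 3e-08), a 2.12-fold difference. Timp1, an inhibitor of matrix metalloproteinases that astrocytes release after injury, was at 3.41, 3.68, 3.56, 3 and 2.76 CPM against 0.756 to 1.37 CPM (median 0.903) (1.71 ± 0.28, adjusted p = 0.000199). Aspg, an asparaginase that marks reactive astrocytes, rose by 1.41 ± 0.22 (adjusted p = 0.000102) and Ptx3, a soluble pattern receptor, by 1.56 ± 0.19 (adjusted p = 3.57e-06). Tgm1, a transglutaminase, rose by 2.50 ± 0.4 (adjusted p = 0.000145) and Cd109, a surface protein that restrains growth factor signalling, by 1.19 ± 0.19 (adjusted p = 0.000193).

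Other widely used markers of reactivity did not pass the test. Serpina3n, a protease inhibitor, was at 214 to 290.2 CPM in CHMP2Bintron5 and 142 to 242 CPM in controls (0.43 ± 0.15, adjusted p = 0.117). Lcn2, an iron-carrying lipocalin, was at 3.38 to 14.1 CPM against 3.77 to 30.5 CPM (-0.55 ± 0.47, adjusted p = 0.57). The general astrocyte list gave 4 higher and 6 lower of 25 (median -0.02), and 7 and 6 after the GC correction. The 4 higher became 2 without control replicate 5 or CHMP2Bintron5 replicate 5. The 6 lower became 3 without control replicate 4, and 2 without control replicate 3 or 5 or CHMP2Bintron5 replicate 1, 2, 4 or 5. Among the higher genes the transcription factor Sox9 rose by 0.61 ± 0.14 (adjusted p = 0.00649) and the membrane protein Mlc1 by 0.31 ± 0.07 (adjusted p = 0.0126). Aqp4, the water channel of astrocytic endfeet, was at 0.25 ± 0.17 (adjusted p = 0.471), and at 0.37 ± 0.1 (adjusted p = 0.0189) after the GC correction.

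Dio2, the deiodinase with which astrocytes make active thyroid hormone for neurons, moved the other way. It was at 8.54, 9.61, 8.55, 7.51 and 8.5 CPM in CHMP2Bintron5 and 11.7 to 28.6 CPM (median 22) in controls, without overlap, and fell (log2 fold change -1.22 ± 0.22, adjusted p = 0.000692). In the list of 10 thyroid hormone genes 2 were higher and 2 lower. Crym, a cytosolic binder of thyroid hormone, was at 1.92, 1.75, 1.71, 2.37 and 1.34 CPM against 0.256 to 1.33 CPM (median 0.432) (1.64 ± 0.4, adjusted p = 0.0134). The transporter Slco1c1 fell (log2 fold change -0.39 ± 0.1, adjusted p = 0.0238), a call lost without control replicate 5 or CHMP2Bintron5 replicate 1, 2 or 5 and after the GC correction (adjusted p = 0.183).

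Part of the cholesterol synthesis pathway was lower. Of 28 tested, 8 were lower and 0 higher, with a median log2 fold change of -0.23. After the GC correction 12 were lower with a median of -0.22. The count fell to 5 without control replicate 5 or CHMP2Bintron5 replicate 1 and to 4 without CHMP2Bintron5 replicate 5. Much of the cholesterol of the nervous system is made by oligodendrocytes for myelin and by astrocytes, and the pathway is switched on by the transcription factor SREBP together with NF-Y.

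Promoter windows of 3 lower genes of this pathway are shown for their CCAAT boxes, the motif that NF-Y binds (RefSeq, GRCm38.p6, 250 bases before the start, written on the gene's strand). Hmgcs1 is at chr13:119690101-119690350 on the plus strand, Idi1 at chr13:8885356-8885605 on the plus strand and Cyp51 at chr5:4104698-4104947 on the minus strand. Capitals mark CCAAT or its reverse complement, searched on both strands.
Hmgcs1: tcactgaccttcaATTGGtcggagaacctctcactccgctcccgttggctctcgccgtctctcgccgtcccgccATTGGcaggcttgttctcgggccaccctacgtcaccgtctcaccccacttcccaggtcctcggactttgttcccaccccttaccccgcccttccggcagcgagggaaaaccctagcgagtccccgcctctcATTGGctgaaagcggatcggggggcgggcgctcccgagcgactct
Idi1: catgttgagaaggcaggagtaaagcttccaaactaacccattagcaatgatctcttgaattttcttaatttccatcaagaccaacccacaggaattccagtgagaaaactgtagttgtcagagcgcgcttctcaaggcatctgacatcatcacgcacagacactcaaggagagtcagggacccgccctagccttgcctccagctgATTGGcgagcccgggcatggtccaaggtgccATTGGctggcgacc
Cyp51: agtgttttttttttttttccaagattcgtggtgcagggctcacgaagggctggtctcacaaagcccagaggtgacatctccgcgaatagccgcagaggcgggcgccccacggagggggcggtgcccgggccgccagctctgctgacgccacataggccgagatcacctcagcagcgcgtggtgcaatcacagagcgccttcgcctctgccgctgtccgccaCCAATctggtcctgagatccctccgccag
The box was present in 18 of the 20 cholesterol synthesis genes with a window (90%) and in 15 of 23 fatty acid synthesis genes (65.2%), against 39.5% of all genes with a window. Among all genes called lower the share was 44.4%, and among all called higher 35.7%. Other lists were also high, with 82.8% of unfolded protein and integrated stress genes and 81.2% of MHC class I genes. The SREBP element TCACNCCAC was found in 1 of the 20, Hmgcs1, against 1.26% of all, and stands in lower case in the sequence above.

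Hmgcs1, which makes the pathway's first committed precursor, was at 445, 587, 626, 462 and 421 CPM in CHMP2Bintron5 and 718 to 900.3 CPM (median 785) in controls. Every CHMP2Bintron5 library lay below every control (-0.64 ± 0.12, adjusted p = 0.000636). Idi1, which isomerises the isoprenoid building block, was at 126, 176, 171, 100.3 and 118 CPM against 182 to 279.8 CPM (median 212) (-0.65 ± 0.13, adjusted p = 0.00332). Cyp51, a sterol demethylase, was at 154, 182, 190.4, 142 and 139 CPM against 206 to 268 CPM (median 220.5) (-0.49 ± 0.09, adjusted p = 0.000707). The values of Idi1 and Cyp51 did not overlap between groups either. Sqle, which oxidises squalene, fell (log2 fold change -0.40 ± 0.09, adjusted p = 0.00575). Msmo1 was called at -0.42 ± 0.1 (adjusted p = 0.01) but not without CHMP2Bintron5 replicate 4 or 5.

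Among genes of cholesterol export 4 of 19 were higher and 0 lower (median 0.21), and 6 and 1 after the GC correction. Abca1, the pump that loads cholesterol onto lipoproteins, rose by 0.56 ± 0.13 (adjusted p = 0.0126). Its groups overlapped, with the lowest CHMP2Bintron5 library at 66 CPM and the highest control at 68.1 CPM. The call was lost with the 11 libraries fitted alone and in a fit that paired libraries by replicate number. Apoc1, an apolipoprotein whose gene neighbours Apoe, was at 10.7, 7.63, 7.42, 14.8 and 11.5 CPM in CHMP2Bintron5 and 2.53 to 4.7 CPM (median 3.55) in controls (1.53 ± 0.22, adjusted p = 3.87e-05). Plin2, a coat protein of lipid droplets, rose by 0.38 ± 0.08 (adjusted p = 0.00553).

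In fatty acid synthesis 5 of 26 genes were lower and 0 higher (median -0.14), and 3 were called without control replicate 4, control replicate 5, CHMP2Bintron5 replicate 1 or CHMP2Bintron5 replicate 4. The GC correction gave 10 lower and 1 higher. Acss2, which makes acetyl-CoA from acetate, fell (log2 fold change -0.46 ± 0.06, adjusted p = 4.11e-06). The desaturases Scd1 and Scd2, which make the monounsaturated fatty acids of myelin, fell (log2 fold changes -0.42 ± 0.1 and -0.28 ± 0.06, adjusted p = 0.00749 and 0.00193). Fasn, the fatty acid synthase, was at 0.12 ± 0.18 (adjusted p = 0.772).

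The oligodendrocyte and myelin list gave 7 of 34 genes lower and 0 higher (median -0.17), and 11 lower after the GC correction. This count depended on single libraries: it was 2 without CHMP2Bintron5 replicate 4, 3 without control replicate 3 or 5 or CHMP2Bintron5 replicate 1 or 5, and 4 without control replicate 4. Mobp, a small basic protein of the myelin sheath, was at 2035, 1965, 2206, 2211 and 1649 CPM in CHMP2Bintron5 and 2438 to 3039 CPM (median 2858) in controls. Its values did not overlap, and it fell (log2 fold change -0.48 ± 0.1, adjusted p = 0.00445). Fa2h, which hydroxylates the fatty acids of myelin sphingolipids, fell (log2 fold change -0.39 ± 0.08, adjusted p = 0.00434).

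Mbp was at 7904, 8567, 9230, 13280 and 7943 CPM in CHMP2Bintron5 against 7816 to 14510 CPM (median 11040) in controls. Replicate 4 lay above the other CHMP2Bintron5 libraries and within the control range (-0.25 ± 0.15, adjusted p = 0.42). Of 16 genes of oligodendrocyte precursors 1 was called, the secreted protein gene C1ql1 (0.79 ± 0.23, adjusted p = 0.0495), which lost its call without any of 7 of the 11 libraries. Myelin genes are also expressed by Schwann cells of the nerve roots, and the summed Schwann cell list, which holds some of the same genes, was 16420 to 21690 CPM in controls and 11310 to 17460 CPM in CHMP2Bintron5. The part of the amount of nerve root in this was not tested. Mal, a called gene of the Schwann cell list, is also on the myelin list.

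Neuronal lists were split by the class of gene. General neuronal genes gave 2 higher (Thy1 and Celf4) and 1 lower (Snap25) of 16, with a median of -0.04, and Rbfox3, the nuclear marker NeuN, was at 0.11 ± 0.17 (adjusted p = 0.757). Motor neuron genes gave 2 higher and 3 lower of 26 (median 0.16), and 6 and 3 after the GC correction. With 1 library left out 0 to 4 were higher and 2 to 3 lower. Chat was at 24.1, 20.6, 25.3, 24.4 and 27 CPM in CHMP2Bintron5 and 13.9 to 22.6 CPM (median 20.5) in controls (0.36 ± 0.13, adjusted p = 0.137), so the motor neuron transmitter enzyme was not called. Slc18a3, the vesicular transporter of acetylcholine whose gene lies within Chat, was at 0.71 ± 0.22 (adjusted p = 0.0684), and at 0.53 ± 0.11 (adjusted p = 0.0019) after the GC correction. Mmp9, a protease of the fast motor neurons that are the most vulnerable in motor neuron disease, was at -0.11 ± 0.17 (adjusted p = 0.769). Chrna4, a nicotinic receptor subunit, fell (log2 fold change -0.31 ± 0.05, adjusted p = 0.000208) and the nuclear receptor Esrrb (-0.40 ± 0.09, adjusted p = 0.00563). Another nuclear receptor, Esrrg, fell (log2 fold change -0.56 ± 0.16, adjusted p = 0.0373), with the call lost without any of 6 of the 11 libraries. The transcription factor Mnx1 and the peptide gene Calcb rose by 0.73 ± 0.2 and 0.74 ± 0.19 (adjusted p = 0.0359 and 0.0257), calls lost without any of 8 and 5 libraries.

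Among the inhibitory neuron genes the largest fall was in Chrna2 (ENSMUSG00000022041, chr14:66135039-66152948), the nicotinic receptor subunit that marks Renshaw cells, the interneurons that motor neurons excite and that inhibit them in return. It was at 0.558, 0.611, 0.803, 0.577 and 0.672 CPM in CHMP2Bintron5 and 2.21 to 3.92 CPM (median 3.18) in controls. The groups were far apart, with a log2 fold change of -2.31 ± 0.17 (adjusted p = 3.56e-10), a 4.95-fold difference, and a highest adjusted p of 9.95e-09 with any 1 library left out. Slc6a5, the transporter that supplies glycine to inhibitory terminals, was at 442, 365, 376, 294 and 404 CPM against 521 to 703 CPM (median 562) (-0.65 ± 0.1, adjusted p = 0.000144). Calb2, the calcium-binding protein calretinin, was the third called member of the 36 inhibitory genes, at -0.53 ± 0.14 (adjusted p = 0.0229), and lost its call without control replicate 6 or CHMP2Bintron5 replicate 2, 3 or 5.

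Other inhibitory markers were not called, and the median of the list was -0.10. The GC correction gave 4 higher and 5 lower inhibitory genes, and with 1 library left out 0 to 4 were higher and 2 to 4 lower. Gad1 and Gad2, which make the transmitter GABA, were at 0.03 ± 0.08 and 0.04 ± 0.13 (adjusted p = 0.86 and 0.885). Pvalb, the calcium buffer parvalbumin of fast-spiking interneurons and of sensory neurons, was at -0.40 ± 0.12 (adjusted p = 0.0702), and at -0.46 ± 0.1 (adjusted p = 0.00285) after the GC correction. Among 23 excitatory and dorsal horn genes 3 were higher and 0 lower, all peptide genes: Tac1 (0.36 ± 0.1, adjusted p = 0.0426), Tac2 (0.55 ± 0.16, adjusted p = 0.0482) and Grp (0.47 ± 0.12, adjusted p = 0.0236). None of the 3 was called without control replicate 5 or 6 or without CHMP2Bintron5 replicate 4 or 5, and 1 was without control replicate 4 or CHMP2Bintron5 replicate 1. Grp was not called after the GC correction (adjusted p = 0.115). Markers of sensory neurons of the dorsal root ganglion, whose fibres enter the cord, were summed per library. The sum was 80.2 to 177 CPM in controls and 127 to 229 CPM in CHMP2Bintron5. Of these 13 genes 0 were called by edgeR or DESeq2, beside 3.73% called by edgeR over all tested genes. An unadjusted p under 0.05 was found for 1. The median of this list was 0.52.

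Ion channel and calcium genes were lower in 10 of 55 cases and higher in 0 (median -0.09). Leaving out 1 library gave 7 to 11 called. After the GC correction 16 were lower and 8 higher, so the count of higher genes rested on the correction. Atp2b1 (chr10:98914406-99026143), the plasma membrane calcium pump that clears calcium from neurons, was at 79.8, 79.5, 79.3, 63.1 and 85.8 CPM in CHMP2Bintron5 and 148 to 221 CPM (median 170) in controls. Replicate 4 was the lowest of all libraries, and the groups did not overlap (-1.19 ± 0.11, adjusted p = 3.99e-08). Scn4b, a sodium channel subunit that permits high-frequency firing, was at 337, 243, 272, 266 and 272 CPM against 437 to 614 CPM (median 503) (-0.87 ± 0.09, adjusted p = 7.86e-08). Scn8a, the main sodium channel of the axon initial segment and nodes, fell (log2 fold change -0.31 ± 0.04, adjusted p = 2.25e-05).

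Kcna1 and Kcna2, potassium channels that lie beside the nodes of myelinated axons, fell (log2 fold changes -0.60 ± 0.09 and -0.52 ± 0.08, adjusted p = 0.000102 and 5.4e-05). None of 25 glutamate receptor genes were called by edgeR (median -0.03). Over all tested genes 3.73% were called, so a list of this size would hold about as few. At an unadjusted p under 0.05, 4 of the 25 were lower and 0 higher, and DESeq2 called 1 lower. With the GC correction 1 was higher and 3 lower.

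The perineuronal net, the matrix that coats large neurons such as motor neurons, gave 4 of 21 genes lower and 0 higher (median -0.12), and the same number was called with any 1 library left out. With the GC correction 6 were lower and 1 higher. Hapln1, a link protein that fixes the net to hyaluronan, was at 9.14, 9.83, 9.61, 6.85 and 8.11 CPM in CHMP2Bintron5 and 15.4 to 24.9 CPM (median 19.2) in controls. All CHMP2Bintron5 libraries were below all controls (-1.15 ± 0.17, adjusted p = 4.03e-05). Acan, the core proteoglycan of the net, was at 12.1, 10.5, 12.2, 11.3 and 11.5 CPM against 16.9 to 22 CPM (median 19.8) (-0.78 ± 0.1, adjusted p = 4.02e-06). Hapln4 fell (log2 fold change -0.49 ± 0.08, adjusted p = 0.000215) and Has3 (a hyaluronan synthase; -0.58 ± 0.13, adjusted p = 0.00916).

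Synaptic genes were lower in 5 of 44 cases and higher in 0 (median -0.10), with 5 to 7 called when 1 library was left out, and 9 lower and 1 higher after the GC correction. Of the 5 genes, 4 are given here, all of the machinery that fuses vesicles. Snap25, a membrane protein of the fusion complex, fell (log2 fold change -0.44 ± 0.09, adjusted p = 0.00196), and its partner Vamp1 fell (log2 fold change -0.38 ± 0.06, adjusted p = 0.000108). Syt2, the calcium sensor of fast synapses, fell (log2 fold change -0.37 ± 0.07, adjusted p = 0.000894) and Cplx1 (which clamps the complex; -0.36 ± 0.09, adjusted p = 0.011). Syp, a vesicle protein used as a marker of all synapses, was at -0.10 ± 0.06 (adjusted p = 0.413).

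Axonal cytoskeleton and transport genes gave 4 of 36 lower and 0 higher (median -0.14), and 11 lower after the GC correction. The count was 2 without any 1 of control replicates 4, 5 and 6 and CHMP2Bintron5 replicates 2, 4 and 5. Ina, a neuronal intermediate filament, fell (log2 fold change -0.48 ± 0.06, adjusted p = 4.11e-06). The kinesin Kif5c fell (log2 fold change -0.35 ± 0.08, adjusted p = 0.0136), a call lost without CHMP2Bintron5 replicate 4 (adjusted p = 0.0694). The calls of Map1a and Kif1b were lost without any of 6 and 8 of the 11 libraries.

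Genes that injured neurons switch on were higher in 9 of 34 cases and lower in 1 (median 0.20), and in 10 and 2 after the GC correction. The count of higher genes was 5 without control replicate 5 or CHMP2Bintron5 replicate 4. Atf3, a stress transcription factor that marks axotomised motor and sensory neurons, was at 5.48, 6.41, 6.27, 6 and 5.16 CPM in CHMP2Bintron5 and 1.8 to 3.1 CPM (median 2.74) in controls. The groups did not overlap (1.21 ± 0.2, adjusted p = 0.000193). Gap43, a protein of growing axons, rose by 0.35 ± 0.07 (adjusted p = 0.00457) and Ecel1, a neuronal peptidase induced by nerve injury, by 0.75 ± 0.15 (adjusted p = 0.00193). Sprr1a, which promotes axon regrowth, rose by 2.07 ± 0.59 (adjusted p = 0.0426), and the call was lost without any of control replicates 3 to 6 and CHMP2Bintron5 replicates 3 and 4. The 1 lower gene was Lmo7 (-0.53 ± 0.1, adjusted p = 0.00112), an actin-binding protein.

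**Figure D4:**
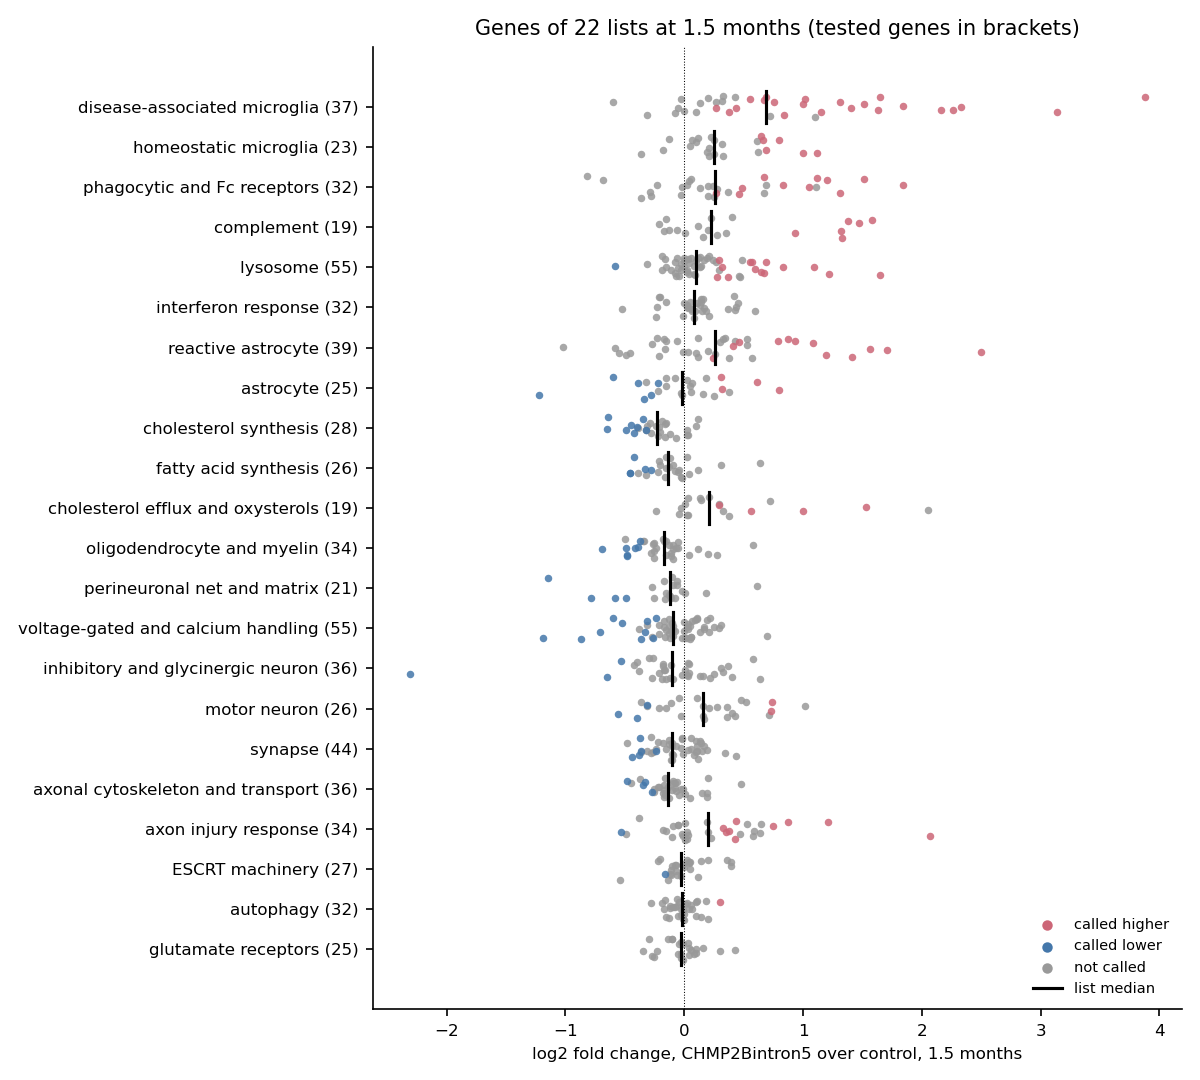
Log2 fold change (x axis) at 1.5 months of each tested gene in 22 lists (y axis, tested genes in brackets), red for genes called higher, blue for genes called lower and grey for genes not called, with the list median as a black bar. Points are spread vertically within a list for legibility. Among the 22 lists drawn, disease-associated microglia lies furthest to the right with a median of 0.69, and cholesterol synthesis furthest to the left with -0.23. Lists not drawn reached further, to 1.09 for skeletal muscle and -0.58 for T and NK cells.

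Among 45 nuclear genes of oxidative phosphorylation 6 were lower and 0 higher (median -0.05), and 12 lower after the GC correction. The 6 became 1 without CHMP2Bintron5 replicate 5, 2 without control replicate 5, and 3 without control replicate 1, 4 or 6 or CHMP2Bintron5 replicate 3 or 4. Atp5b, the catalytic subunit of ATP synthase, fell (log2 fold change -0.21 ± 0.04, adjusted p = 0.00293). Of 15 mitochondrially encoded genes 3 were lower (median -0.24), and 0 were called without any 1 of control replicates 3, 4 and 5 and CHMP2Bintron5 replicates 2, 4 and 5. Ribosomal protein genes had a median of 0.29 with 53 of 54 above 0. None was called by edgeR, beside 3.73% over all tested genes, while 18 had an unadjusted p under 0.05 and DESeq2 called 1. Their summed level was 5743 to 8758 CPM in controls and 7091 to 11710 CPM in CHMP2Bintron5, so the groups overlapped. After the GC correction the ribosomal median was 0.22 and 3 were higher.

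Of 32 genes of the unfolded protein and integrated stress responses 0 were higher and 2 lower (median -0.16), the chaperones Hsp90b1 (-0.39 ± 0.09, adjusted p = 0.0116) and Hyou1 (-0.21 ± 0.06, adjusted p = 0.0328). The call of Hsp90b1 was lost without CHMP2Bintron5 replicate 4, and that of Hyou1 without any of 6 libraries. With the GC correction 5 genes of this list were lower. Heat shock genes gave 2 higher and 1 lower of 20, and 2 and 4 after the correction. Hspb8, a small chaperone of the pathway that delivers misfolded proteins to autophagy, rose by 0.41 ± 0.09 (adjusted p = 0.00678), and Stip1, a cochaperone, fell (log2 fold change -0.27 ± 0.05, adjusted p = 0.00263). Glucocorticoid response genes gave 0 higher and 2 lower of 24, Tsc22d3 and Zbtb16. The call of Tsc22d3 was lost without control replicate 6 or CHMP2Bintron5 replicate 5, and that of Zbtb16, whose groups overlapped, without any of 7 of the 11 libraries (adjusted p up to 0.123). The direct target Fkbp5 was at -0.49 ± 0.25 (adjusted p = 0.313).

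Some of the largest single changes lay outside these lists. Apln, which encodes the vascular peptide apelin, was at 33.7, 33.3, 33.7, 33.8 and 39.6 CPM in CHMP2Bintron5 and 55.2 to 70.9 CPM (median 66.3) in controls (-0.90 ± 0.09, adjusted p = 4.69e-08). CHMP2Bintron5 replicate 5 was somewhat apart from the other 4, and all 5 lay below the controls. Mybpc3, known as a myosin-binding protein of heart muscle, was at 0.372, 0.149, 0.121, 0.168 and 0.185 CPM against 0.945 to 1.78 CPM (median 1.37) (-2.80 ± 0.3, adjusted p = 2.48e-07). Smyd1, a methyltransferase of striated muscle, was at 5.07, 5.68, 8.43, 4.3 and 4.84 CPM against 11.7 to 12.9 CPM (median 12.3) (-1.12 ± 0.22, adjusted p = 0.002). With the pair of libraries high in muscle transcripts left out, the adjusted p of Mybpc3 was 1.26e-05 and that of Smyd1 0.00123. The list of endothelial cells held a smaller change. Of its 18 genes 1 was called, beside 3.73% over all tested genes. This gene, Mfsd2a, a lipid transporter of the blood-brain barrier, fell (log2 fold change -0.53 ± 0.13, adjusted p = 0.0124). Its call was lost with the 11 libraries fitted alone and in a fit that paired libraries by replicate number.

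Further decreases were found in genes of varied roles. Dmrta1, a transcription factor, fell (log2 fold change -1.57 ± 0.32, adjusted p = 0.00325), Calcoco2 (an autophagy receptor; -1.44 ± 0.32, adjusted p = 0.0068), and Aqp6 (a channel of the aquaporin family; -1.40 ± 0.21, adjusted p = 8.33e-05). Hsd11b1, which regenerates active glucocorticoid, fell (log2 fold change -0.92 ± 0.12, adjusted p = 1.66e-05), and Gnptab (which tags enzymes for the lysosome; -0.80 ± 0.13, adjusted p = 0.000224).

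The genotype difference at 1.5 months was then compared with that at the later ages by interaction contrasts over the same 20015 genes. Between 6 and 1.5 months 31 genes differed (0.155%), 16 with a higher and 15 with a lower difference at 6 months. Between 10-12 and 1.5 months 2 genes differed (0.00999%), both lower at the later age. Both contrasts use the same 11 libraries of 1.5 months and are therefore not independent of each other. At an unadjusted p under 0.05, 1608 and 1122 genes passed. DESeq2 called 73 higher and 48 lower between 6 and 1.5 months, and 11 and 10 between 10-12 and 1.5 months. Without the pair of 1.5 months libraries high in muscle transcripts edgeR called 5 and 7, and 0 and 0.

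Of the 746 genes called at 1.5 months, 690 had the same sign at 6 months and 366 were called there in the same direction, in a comparison that called 2274 genes in all. At 10-12 months 715 had the same sign and 503 were called in the same direction, out of 3723 called. The interaction was called for 15 of the 746 at 6 months and for 2 at 10-12 months.

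Genes with a lower difference at 6 months included microglial genes described above. Itgax had a log2 fold change of 3.88 at 1.5 months, 0.45 at 6 months and 1.60 at 10-12 months, an interaction of -3.42 ± 0.57 between 6 and 1.5 months (adjusted p = 0.00576). Trem2 went from 1.84 to 0.47 and 0.85 over the 3 ages (-1.38 ± 0.24, adjusted p = 0.00576). Cd68 was at 1.65, 0.29 and 0.84 (-1.37 ± 0.23, adjusted p = 0.00576) and Mpeg1 at 1.67, -0.10 and 0.32 (-1.77 ± 0.3, adjusted p = 0.00576). The chemokine Ccl3 was at 3.56, 0.37 and 1.34 (-3.19 ± 0.62, adjusted p = 0.0218). In each of these 5 genes the fitted difference was larger at 1.5 months than at 6 months. The tested difference at 10-12 months was not called for any of them, with adjusted p of 0.176 for Itgax and 0.147 for Trem2.

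Fcrls and Pdcd1 differed at both later ages. Fcrls was at 1.12 at 1.5 months, -0.90 at 6 months and -0.56 at 10-12 months, so the sign of the fitted difference turned. Its interactions were -2.02 ± 0.33 (adjusted p = 0.00576) and -1.69 ± 0.3 (adjusted p = 0.0444), the latter called in 9 of 32 fits that left out 1 library. Pdcd1 was at 3.56, 0.36 and 0.64 (-3.20 ± 0.52, adjusted p = 0.00576, and -2.92 ± 0.47, adjusted p = 0.0135). The second call of Pdcd1 was lost without control 1.5 months replicate 4 (adjusted p = 0.0503).

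None of the 31 genes was called between 6 and 1.5 months when CHMP2Bintron5 replicates 2 and 3 of 6 months, which are high in sensory neuron transcripts, were left out. The interaction of Itgax was then -3.07 (adjusted p = 0.157) and that of Trem2 -1.23 (adjusted p = 0.157), close to the values with all libraries. The interactions of Trpv1, Acpp and Pirt, genes of sensory neurons, went from 4.18, 4.74 and 4.55 to 0.75, 0.05 and -0.46. That fit leaves 2 CHMP2Bintron5 libraries at 6 months.

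Values by age are given here for 6 genes of other groups. Thy1 was at 1.35, 0.94 and 1.27, Gfap at 1.08, 0.47 and 0.79, and C4b at 1.38, 1.45 and 1.29. Among the lower genes, Chrna2 was at -2.31, -2.04 and -2.21, Atp2b1 at -1.19, -1.12 and -1.29, and Hmgcs1 at -0.64, -0.54 and -0.50. None of these 6 genes had a called interaction at either age, with adjusted p between 6 and 1.5 months of 0.523 for Thy1, 0.0998 for Gfap and 0.884 for Chrna2, which does not show that the differences are equal.

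**Figure D5:**
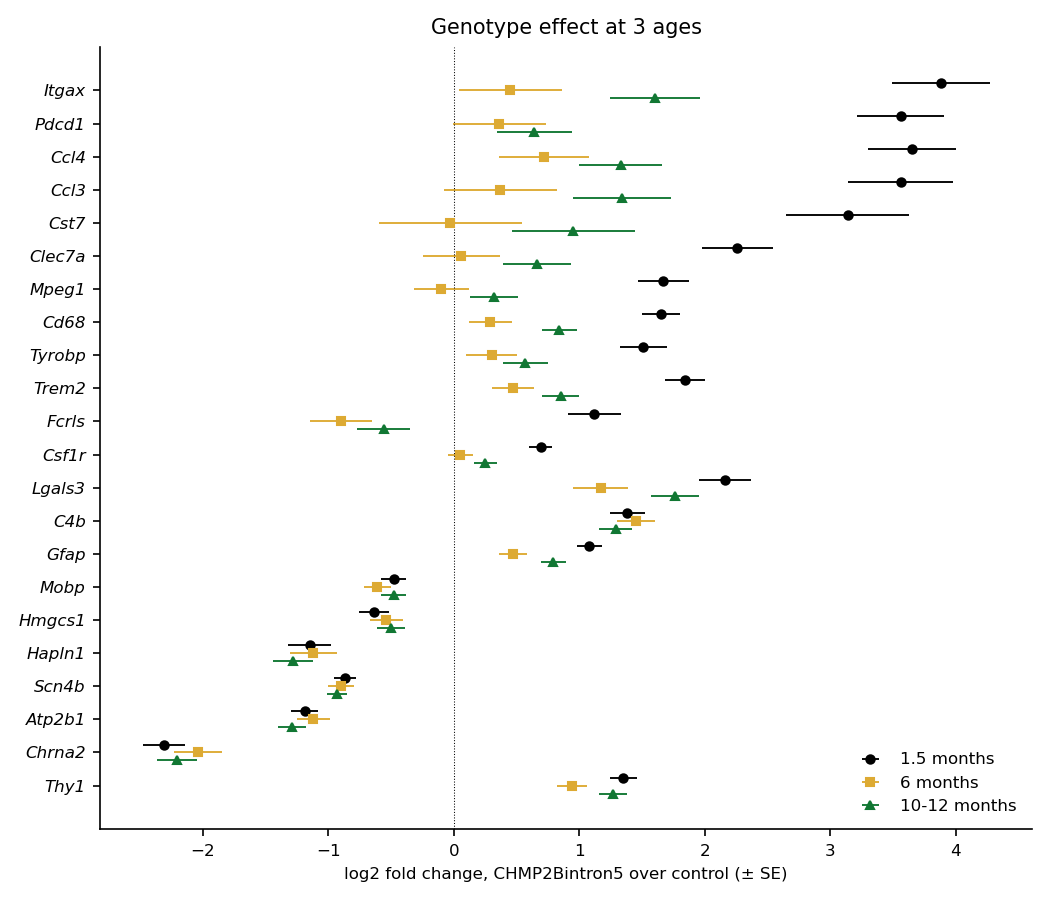
Log2 fold change (x axis, CHMP2Bintron5 over control) with its SE for 22 genes (y axis) at 1.5 months (black circles), 6 months (yellow squares) and 10-12 months (green triangles). Itgax, Pdcd1, Ccl3 and Ccl4 lie furthest to the right at 1.5 months and nearer 0 at 6 months, while Thy1 and Gfap stay above 0 and Chrna2 below 0 at each age.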

How the data were processed

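Poly(A) RNA from mouse spinal cord was sequenced with a stranded TruSeq kit, per the labels' protocols. The authors deposited whole-number counts per gene for each library, made with bcl2fastq 2.17.1.14, TopHat2 2.0.14, Bowtie2 2.1.0 and HTSeq 0.6.1 on mm10, per the submitters' processing notes. Neither the annotation release nor the strand setting is stated there, so reads of overlapping genes on opposite strands may be shared. The series text gives 4 CHMP2Bintron5 samples at 1.5 months, and the 5 labelled ones were used.

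From these counts, genes were filtered with edgeR 4.0.16 (filterByExpr, minimum count 10, minimum total 15), scaled by TMM and fitted in R 4.3.3 on all 32 libraries with 1 term per genotype and age. Quasi-likelihood tests were two-sided with Benjamini-Hochberg adjustment over all 20015 genes and a threshold of 0.05. The GC correction removed each library's spline trend on GC content (longest transcript) and gene length (merged exons), both from GENCODE. Promoter windows came from RefSeq (GRCm38.p6). Library measures were compared by exact permutation tests. Alternatives were the 11 libraries alone, other scalings, no filter, DESeq2 1.42.0, a replicate block and each library left out. The fits were tested on simulated data.

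The comparison, gene lists and shown genes were chosen with earlier results of these data known. Named genes were Chmp2b and Thy1, the 25 highest and 25 lowest called fold changes among named genes of at least 1 mean CPM whose 5 CHMP2Bintron5 values all lay above, or all below, the mean of the controls, the 15 lowest p, up to 6 called members of each list by lowest p, list members given as not called, and up to 8 interaction genes per direction and contrast. Those shown in every library were picked from these and from list members after their values were seen. Some named genes are not reported here.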

Additional observations from a re-analysis of the deposited data

Results flagged for a closer look

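In groups of 5 or 6 libraries a library was singled out where its gap to the nearest other library was large against the range of its group, a rule that chance meets in about 1 of 20 groups. It was met in 12 of the 132 groups tested, so some of these would be met by chance. The summed skeletal muscle genes stood at 446 CPM in control replicate 2 and at 606.7 CPM in CHMP2Bintron5 replicate 3. CHMP2Bintron5 replicate 4, the library with the steepest slope on GC content, stood apart from the other 4 in Lgals3 (12.3 CPM), Tmem119 (18.6 CPM), C1qa (80.1 CPM), C3 (88.95 CPM), Mbp (13280 CPM) and Atp2b1 (63.1 CPM). Apln was at 39.6 CPM in CHMP2Bintron5 replicate 5 and Mybpc3 at 0.372 CPM in CHMP2Bintron5 replicate 1. Among controls, Cst7 was at 0.922 CPM in replicate 1 and Gpnmb at 0.803 CPM in replicate 5, where it came close to the lowest CHMP2Bintron5 library.

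The genotype difference differed between 6 and 1.5 months by the interaction test. On the log2 scale the change was -2.02 for Fcrls, -3.42 for Itgax, -1.37 for Cd68, -1.77 for Mpeg1, -1.38 for Trem2, -3.19 for Ccl3 and -1.09 for Cd300c2. It was 0.46 for Chfr, 1.72 for Vill, 0.55 for Dzip1l and 0.50 for Chka. Genes known from sensory neurons or muscle and fat gave larger values, 4.18 for Trpv1, 4.95 for Trarg1, 4.74 for Acpp and 4.55 for Pirt. Without CHMP2Bintron5 replicates 2 and 3 of 6 months these 4 became 0.75, 0.02, 0.05 and -0.46. Between 10-12 and 1.5 months the change of Fcrls was -1.69.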

How the results depend on the processing

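At 1.5 months the counts were 352 higher and 394 lower. They were 167 and 141 with the 11 libraries fitted alone, 145 and 136 with a replicate block, and 675 and 873 with the GC and length correction. Leaving out 1 library gave 241 (without control replicate 5) to 396 (without control replicate 1) higher genes, and 233 (without CHMP2Bintron5 replicate 4) to 447 (without control replicate 2) lower genes. Same-numbered libraries did not deviate together (correlations -0.42 to 0.05), so the block pairs libraries by number only. The 166 named and called genes kept their direction in every alternative. Of these, 101 kept their call with the 11 libraries alone, 101 with the block, 161 with the GC correction, 166 with DESeq2 and 125 to 159 with 1 library left out.

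Between 6 and 1.5 months, 16 higher and 15 lower interaction genes became 37 and 44 with the GC correction, 0 and 0 with the block, and 0 and 0 without CHMP2Bintron5 replicates 2 and 3 of 6 months, where Pirt turned to -0.46. Without the filter on low counts 10 were higher. Leaving out 1 library gave 3 to 89 higher and 7 to 41 lower. Between 10-12 and 1.5 months, 0 higher and 2 lower became 2 and 9 with the GC correction and 0 lower with the block. Leaving out 1 library gave 0 to 1 higher and 0 to 3 lower. Further settings were added after the data were seen. DESeq2 gave 73 and 48 between 6 and 1.5 months and 11 and 10 between 10-12 and 1.5 months. Without the muscle-rich pair the counts were 5 and 7, then 0 and 0. The GC correction with the block gave 0 and 3, then 1 and 2. Upper quartile scaling gave 16 and 14, then 0 and 2. The cause of these moves was not tested.

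The difference in mitochondrial share ran from -0.968 to -0.612 percentage points with 1 library left out (exact permutation p = 0.00794 to 0.1), and was -0.742 (p = 0.026) over protein-coding counts. The difference in GC slope ran from 0.0373 to 0.195 (exact permutation p = 0.19 to 0.743). Depth limits genes near 1 CPM, such as Cst7, Gpnmb and Mybpc3.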
